A study of Homo sapiens with 16 samples.

Results

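PCF11 and 9 other factors that cut and finish the 3′ ends of messenger RNAs are described here across 6 treatment groups of CCD-1070Sk, an established line of human skin fibroblasts. The 10 genes were set by name among the 28374 genes of the deposited count table. PCF11 was chosen by its measured counts, which were lower with the kinase inhibitor H89 after both mitogens, so its levels in the libraries with EGF or TPA are given as a description with no test. The other members were taken as its partners in 3′ end formation. All 10 passed the filter on low counts.

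All cells were deprived of serum. The groups were TPA+H89 (2 libraries), TPA (2), EGF+H89 (2), EGF (3), H89 (3) and untreated control (3). TPA, a phorbol ester that activates protein kinase C, was given at 100 nM for 1 h, and EGF, epidermal growth factor, at 30 ng/ml for 1 h. H89 was given at 10 µM with 30 min of pretreatment; it inhibits the mitogen- and stress-activated kinases MSK1 and MSK2 and protein kinase A, among other kinases. Cells with H89 alone are recorded at 0 h, so their time in the inhibitor may differ from that of the cells given a mitogen. CCD-1070Sk is 1 line, and the labels do not say that replicates came from separate cultures, so p-values reflect spread among samples that may be technical only. Another control had the same count as control 3 at all 19340 genes with a count and was used once, with it.

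The 15 libraries held 7527026 to 130075914 counts. They fell into 3 technical sets, read from the counts and not given by the labels. Set A, control 1 and EGF 1, had more genes with 1 count than with 2 counts. Set B was the first replicate of TPA+H89, TPA, EGF+H89 and H89, with EGF 2 and control 2. Its libraries had over 10% of their counts in RNR1 and RNR2, which are rRNA genes. That share was 12.0% in TPA+H89 1 and 11.7% in TPA 1, and 24.8% to 30.4% in the rest of set B. The remaining libraries form set C. Fibroblast markers summed to 20500 to 58100 CPM (counts scaled to a common library total) in the libraries. The 4 keratinocyte markers summed to 6.28 to 44.4 CPM, nearly all of it KRT10, while KRT1, KRT5 and KRT14 were at 0 in 11, 12 and 12 libraries. The 3 endothelial markers summed to 0.348 to 2.82 CPM, with VWF above 0 in every library and PECAM1 and CDH5 each at 0 in 10. The 4 melanocyte markers summed to 1.07 to 2.94 CPM, with TYR at 0 in 13 libraries and PMEL, MLANA and DCT above 0 in all. The 4 leukocyte markers summed to 10.6 to 76.6 CPM, nearly all of it CD68, at 9.44 to 76.2 CPM. The mitogen-responsive transcription factor EGR2 was at 265 and 365 CPM in TPA+H89 and 347 and 350 in TPA libraries. It was at 243 and 240 in EGF+H89 and 43.0, 157 and 201 in EGF libraries. H89 libraries held 8.46, 5.37 and 5.92, and controls 10.0, 4.44 and 8.71. EGR2 was 1 of 5 mitogen-responsive genes checked. The log2 difference with H89, averaged over the 3 comparisons with and without it, was −1.17 ± 0.275 (SE) for DUSP1 and −1.22 ± 0.41 for NR4A1. For EGR2 it was 0.16 ± 0.29, for EGR1 0.62 ± 0.41 and for FOS −0.19 ± 0.55. None of the 5 passed the adjusted test there.

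The 3′ end of nearly every mRNA is made by cutting the nascent transcript downstream of a poly(A) signal and adding a poly(A) tail. The cleavage and polyadenylation specificity factor (CPSF) reads the signal and holds the endonuclease, the cleavage stimulation factor (CstF) binds the sequence beyond the cut, cleavage factor I guides the choice between alternative sites, and cleavage factor II, made of PCF11 and CLP1, completes the machine. PCF11 also binds the tail-like C-terminal domain of RNA polymerase II and helps the enzyme to stop transcribing after the cut.

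PCF11 was lower in every library with H89 than in every library without it. It had 35.9 and 29.2 CPM in TPA+H89 libraries and 73.8 and 56.7 CPM in TPA libraries. It had 28.6 and 24.8 CPM in EGF+H89 libraries, against 59.1, 67.2 and 61.2 CPM in EGF libraries. With H89 alone it had 36.85, 35.6 and 30.3 CPM, against 41.1, 37.6 and 48.6 CPM in control libraries. The 7 libraries with H89 therefore lay at 24.8 to 36.85 CPM and the 8 without it at 37.6 to 73.8 CPM, with H89 1 and control 2 as the nearest neighbours across the gap. Of the 18575 genes tested, 0.0592% were lower in all libraries with H89 than in all others and 0.0108% were higher. Because PCF11 was chosen for its level in the libraries with H89 after a mitogen, those shares are given as background and support nothing. In bulk samples, fewer cells of a type and less RNA per cell cannot be told apart.

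**Figure D1:**
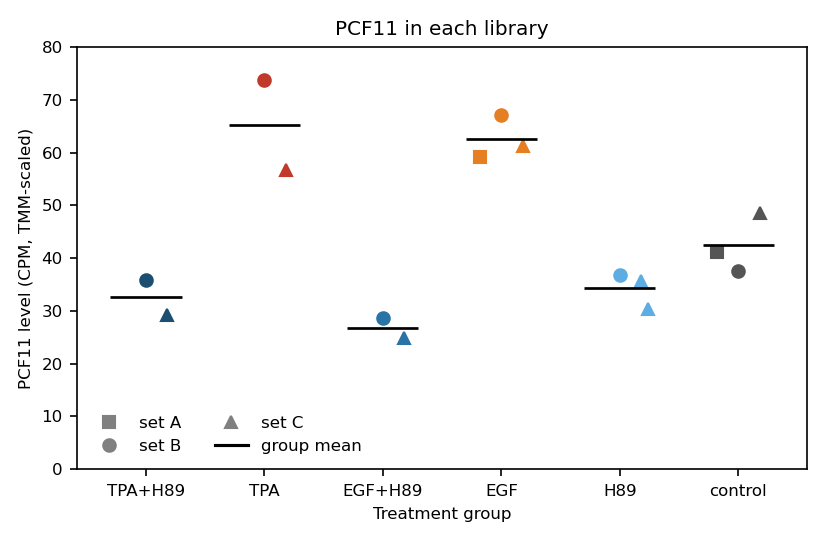
PCF11 level in each library (y axis, TMM-scaled CPM) by treatment group (x axis); squares, circles and triangles mark technical sets A, B and C and bars mark group means. All 5 libraries with a mitogen alone lie at 56.7 CPM or above, and all 7 with H89 at 36.85 CPM or below.

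PCF11 averaged 32.5 ± 4.75 CPM in TPA+H89 cells and 65.3 ± 12.1 CPM in TPA cells (SD, n = 2 each). It averaged 26.7 ± 2.67 CPM in EGF+H89 cells (n = 2), against 62.5 ± 4.19 CPM in EGF cells (n = 3). It averaged 34.3 ± 3.46 CPM in H89 cells and 42.4 ± 5.61 CPM in control cells (n = 3 each). From highest to lowest the order was TPA, EGF, control, H89, TPA+H89 and EGF+H89. TPA and EGF overlapped, as did H89 and TPA+H89, and neither pair differed beyond its spread. The step between EGF and control exceeded both SDs. H89 and control did not overlap, but their nearest libraries were 36.85 CPM in H89 and 37.6 CPM in control. TPA+H89 and EGF+H89 did not overlap either, at 29.2 and 28.6 CPM in their nearest libraries. The share of all genes apart in this pair was not computed, and with n = 2 each no difference is read from it.

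On the log2 scale, PCF11 differed by −1.23 ± 0.23 (SE; 95% interval −1.72 to −0.74) between EGF+H89 and EGF cells. Between TPA+H89 and TPA cells it differed by −1.01 ± 0.24 (−1.53 to −0.49). The difference was 0.56 ± 0.19 for EGF over control and 0.62 ± 0.21 for TPA over control. These 4 values are a description, since they rest on the libraries that chose the gene, and the EGF and TPA values share their controls. Groups lay apart in the same direction as PCF11 for 10.1%, 11.1%, 2.97% and 9.6% of tested genes in these 4 comparisons, in the order given. No member lay apart below control with EGF (1.99% of tested genes did) or TPA (10.1%), or above EGF in EGF+H89 cells (7.6%). For H89 alone against control, which the choice did not use, the log2 fold change was −0.31 ± 0.19 (−0.73 to 0.11), and it did not pass edgeR's quasi-likelihood test (adjusted p = 1). All 3 H89 libraries were below all 3 controls, as were 4.25% of tested genes.

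Within technical sets, the difference between EGF+H89 and EGF cells was −1.23 in set B and −1.30 in set C, and that between TPA+H89 and TPA cells was −1.04 and −0.96. The difference between H89 alone and control was −0.03 in set B and −0.56 in set C. For EGF over control it was 0.525 in set A, 0.84 in set B and 0.33 in set C. For TPA over control it was 0.97 in set B and 0.22 in set C. In set B, TPA 1 also held less rRNA than control 2 (11.7% against 30.4% of counts), so that value is not free of technical differences. Over all sets, the TPA over control value was 0.39 without TPA 1 and 0.80 without TPA 2. The H89 value was −0.20 without control 3.

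With H89 present throughout, the mean PCF11 level was no higher with a mitogen than with H89 alone. The log2 difference between EGF+H89 and H89 cells was −0.36 ± 0.22, and both EGF+H89 libraries lay below all 3 H89 libraries, as did those of CPSF2 and CPSF3 and of 11.9% of tested genes; no member lay apart above H89, as 10.7% of genes did. Between TPA+H89 and H89 cells it was −0.08 ± 0.22, and the groups overlapped; CSTF1 and CPSF1 lay apart there, lower in TPA+H89 cells, as did 10.9% of tested genes. The change in the EGF response with H89, taken as EGF+H89 minus EGF less H89 minus control, was −0.92 ± 0.29, and the same quantity for TPA was −0.70 ± 0.31. These comparisons share the H89 libraries, and each is a description for PCF11.

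Set against its own partners, PCF11 split the libraries in the same way without any scaling between them. Of the raw counts of the 10 genes, PCF11 took 7.69% and 6.77% in TPA+H89 libraries, against 14.1% and 13.4% in TPA libraries. It took 6.25% and 5.97% in EGF+H89 libraries, against 13.2%, 12.9% and 12.7% in EGF libraries. It took 7.74%, 7.53% and 6.48% in H89 libraries, against 9.36%, 7.85% and 10.0% in control libraries. The 5 shares with a mitogen alone were thus the highest, and the H89 and control groups came closest at 7.74% (exact binomial 95% interval 7.28% to 8.23%) in H89 1 and 7.85% (7.27% to 8.46%) in control 2. These intervals cover counting error only. In libraries with EGF or TPA, the shares rest on the PCF11 counts that chose the gene, so they describe the same values again. The shallowest library, TPA+H89 1, held 197 PCF11 counts and had the widest interval, 6.69% to 8.79%.

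**Figure D2:**
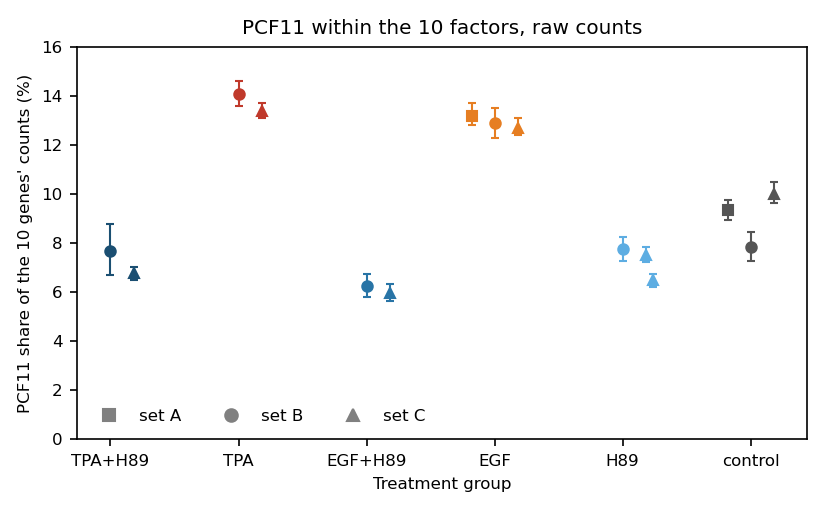
Share of the 10 genes' raw counts that belonged to PCF11 (y axis, percent) in each library by treatment group (x axis), with exact binomial 95% intervals; marker shapes give technical sets A, B and C. Libraries with EGF or TPA alone lie at 12.7% to 14.1%, those with H89 at 5.97% to 7.74% and controls at 7.85% to 10.0%.

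PCF11 lies on chromosome 11 at 83157131 to 83187451 (GRCh38.p14, RefSeq). Its exons overlap those of PCF11-AS1, an RNA of the opposite strand, and the sources used here do not say whether counting used strand. PCF11-AS1 held 0.169 to 1.2 CPM in all libraries, against at least 24.8 CPM for PCF11. CLP1, at 57657762 to 57661865, and the CstF scaffold CSTF3, at 33084584 to 33161480, are on the same chromosome. The 250 bases upstream of these 3 starts are shown because PCF11 and CLP1 form 1 complex, and because CSTF3 holds a full cAMP response element, TGACGTCA, the site of the factor CREB, a target of kinases that H89 inhibits. They are given 5′ to 3′ on the gene's strand from RefSeq (GRCh38.p14), and capitals mark TGACG on either strand (the core of that element) or its full form, and CGGAAG, the core of ETS factor sites.
PCF11, chr11:83156881-83157130, plus strand: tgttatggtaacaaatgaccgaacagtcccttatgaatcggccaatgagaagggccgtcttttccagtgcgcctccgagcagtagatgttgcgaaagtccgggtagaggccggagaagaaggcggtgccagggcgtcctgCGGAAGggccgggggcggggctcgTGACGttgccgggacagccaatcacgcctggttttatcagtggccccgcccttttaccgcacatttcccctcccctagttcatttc
CLP1, chr11:57657512-57657761, plus strand: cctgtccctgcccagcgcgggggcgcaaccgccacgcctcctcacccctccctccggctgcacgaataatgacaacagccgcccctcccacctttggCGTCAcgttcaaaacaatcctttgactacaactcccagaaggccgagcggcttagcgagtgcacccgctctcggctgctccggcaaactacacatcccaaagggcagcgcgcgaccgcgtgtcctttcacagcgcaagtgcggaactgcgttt
CSTF3, chr11:33161481-33161730, minus strand: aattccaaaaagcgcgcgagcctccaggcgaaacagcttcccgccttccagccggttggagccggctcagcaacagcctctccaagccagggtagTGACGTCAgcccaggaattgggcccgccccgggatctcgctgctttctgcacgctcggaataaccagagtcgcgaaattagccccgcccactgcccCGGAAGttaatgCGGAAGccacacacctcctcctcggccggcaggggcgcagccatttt
PCF11 held TGACG at −86 and CGGAAG at −110, counted from the transcription start, and CCAAT at −209 and −69. CLP1 held TGACG on the opposite strand at −153 and the EGR motif GCGNGGGCG at −234. CSTF3 held TGACGTCA at −155.

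Windows of 300 bases, 250 before and 50 after the start, were matched for 9 of the 10 members and searched on both strands. TGACG was present for 7 members and in 24.6% of 35116 RefSeq windows, and TGACGTCA, which contains it, for CSTF1 and CSTF3 and in 1.85%. CGGAAG was present for 8 members and in 19.5% of windows, CCAAT for 6 and in 34.6%, and GCGNGGGCG for CLP1 and CPSF6 and in 9.43%. The AP-1 motif TGANTCA (7.71% of windows) and TATAAA (11.5%) were present for 0 members. Members were counted by gene and the percentages by window, with CSTF1 holding 2 windows. The windows were not matched to the members in expression or base composition, so no enrichment is read from these numbers. A match in these windows is a description and not a binding site. The members with TGACG were PCF11, CLP1, CSTF1, CSTF3, CPSF2, CPSF3 and CPSF6, and a link between motif and level was not tested.

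CLP1, the RNA kinase that pairs with PCF11 in cleavage factor II, showed no gap between libraries with and without H89. It had 12.2 and 13.4 CPM in TPA+H89 libraries and 13.5 and 11.9 CPM in TPA libraries. It had 14.2 and 14.5 CPM in EGF+H89 libraries, against 22.9, 12.7 and 15.4 CPM in EGF libraries. It had 15.2, 11.5 and 13.9 CPM in H89 libraries, against 15.3, 13.5 and 13.3 CPM in controls. EGF 1 was its highest library, and each group with H89 overlapped its match without H89. The log2 fold change was 0.01 ± 0.30 for TPA+H89 over TPA and −0.25 ± 0.27 for EGF+H89 over EGF. There were 2.94 and 2.17 PCF11 counts per CLP1 count in TPA+H89 libraries and 5.46 and 4.75 in TPA libraries. That ratio was 2.02 and 1.71 in EGF+H89 libraries, against 2.58, 5.29 and 3.97 in EGF libraries.

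Of the 3 CstF subunits, CSTF2, which contacts the GU-rich sequence beyond the cut, came closest to PCF11 in its pattern over the libraries. It had 5.97 and 7.54 CPM in EGF+H89 libraries, below the 9.28, 9.20 and 8.90 CPM of the EGF libraries. Its log2 fold change there was −0.43 ± 0.26 (−0.995 to 0.13; adjusted p = 1 by edgeR's quasi-likelihood test). In TPA+H89 cells it had 9.48 and 7.41 CPM and in TPA cells 8.92 and 8.36 CPM, and the groups overlapped. CSTF1, the WD-repeat subunit, had 32.4 and 33.2 CPM in EGF+H89 libraries, against 39.5, 38.4 and 39.0 CPM in EGF libraries, a log2 fold change of −0.25 ± 0.26. PCF11, CSTF1 and CSTF2 were thus the members whose EGF+H89 libraries all lay below EGF, a pattern that 10.1% of tested genes shared. CSTF3 varied within groups, at 27.5 and 14.3 CPM in TPA+H89 and 22.0 and 11.1 CPM in TPA libraries.

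Within CPSF, the endonuclease subunit CPSF3 leaned the other way from PCF11. It had 36.1 and 45.3 CPM in TPA+H89 libraries, above the 35.4 and 23.7 CPM of TPA libraries. With H89 alone it had 47.9, 42.9 and 42.3 CPM, above the 32.6, 39.7 and 40.3 CPM of controls. Groups apart in this direction were seen for 10.6% of tested genes in the TPA comparison and for 2.85% with H89 alone. The log2 fold changes, 0.46 ± 0.26 and 0.24 ± 0.21, did not pass the test (adjusted p = 0.755 and 1, edgeR's quasi-likelihood test). In EGF+H89 cells CPSF3 had 41.8 and 39.3 CPM, within the 32.7 to 43.8 CPM of EGF cells. Within sets B and C the TPA+H89 over TPA difference of CPSF3 was 0.03 and 0.94 (log2), and TPA 2 was its lowest library of all.

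CPSF1, the large scaffold of CPSF, spread most of the 10 genes. It had 28.2 and 39.2 CPM in TPA+H89 libraries, against 28.6 and 97.1 CPM in TPA libraries, so the TPA libraries lay far apart. Its log2 fold change there was −0.90 ± 0.45 (−1.87 to 0.07) and did not pass edgeR's quasi-likelihood test (adjusted p = 0.721). Without TPA 1, leaving TPA 2 as the lone TPA library and assuming that it varied like the other groups, the value was −1.515 ± 0.37 and passed (adjusted p = 0.0466), as did 2.73% of genes in that direction. Within set B, without TPA 2, the difference was −0.02. The exons of CPSF1 overlap those of ADCK5 on the opposite strand, which stood at 26.5 CPM in TPA 2 and at 5.36 to 10.9 CPM in all other libraries; its part in the CPSF1 value was not tested. CPSF2, the partner of CPSF3 without nuclease activity, had 84.6 to 110 CPM in the 7 libraries with H89 and 71.8 to 116 CPM in the other 8.

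The genes of cleavage factor I did not pass the test in any comparison. CPSF6, a large subunit of it, varied least of the members, at 42.3 to 47.7 CPM in the 7 libraries with H89 and 38.1 to 52.3 CPM in the other 8. Its log2 fold changes were 0.01 ± 0.20 for EGF+H89 over EGF and −0.04 ± 0.22 for TPA+H89 over TPA, with intervals of −0.42 to 0.44 and −0.51 to 0.43. CPSF6 was apart in TPA+H89 against H89, at 47.4 and 47.7 CPM against 43.9, 43.9 and 43.0 CPM, as were 9.92% of tested genes in that direction. NUDT21, the small subunit that binds UGUA, had 115 to 137 CPM with H89 and 67.4 to 136 CPM without it, and the 67.4 was TPA 2.

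**Figure D3:**
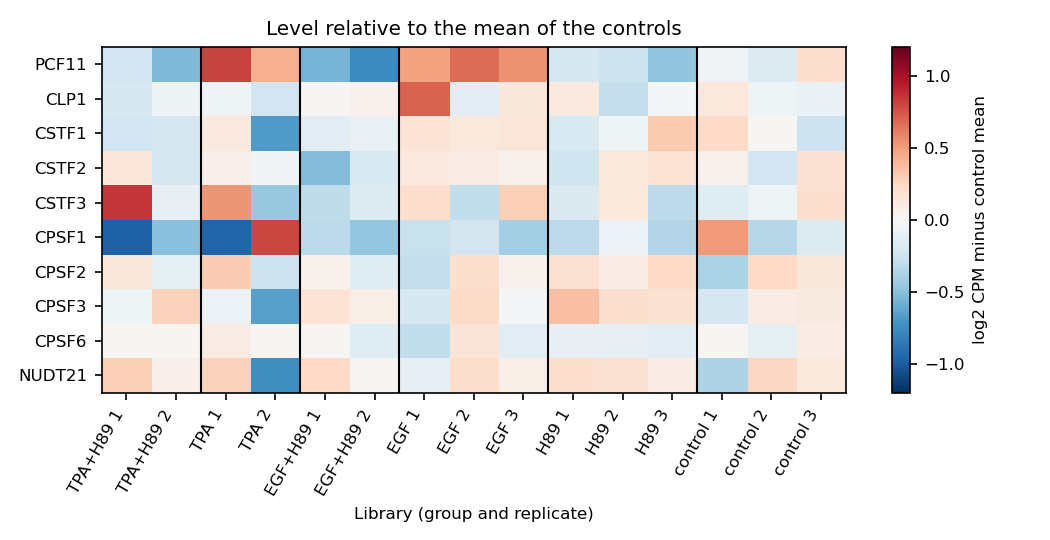
Level of each member (rows) in each library (columns) as log2 CPM minus the control mean (colour, log2 units). Only the PCF11 row is above the control mean in all 5 libraries with EGF or TPA alone and below it in all 7 with H89; TPA 2 is lowest of all libraries for CSTF1, CSTF3, CPSF3 and NUDT21 and highest for CPSF1.

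TPA 2, the deepest library, stood apart for several members. It was the lowest of the 15 libraries for CSTF1 (22.0 CPM), CSTF3 (11.1), CPSF3 (23.7) and NUDT21 (67.4) and the highest for CPSF1 (97.1). TPA+H89 1, the shallowest library, in which the structural RNA RMRP took 13.4% of counts, was the highest for CSTF3 and NUDT21 and the lowest for CPSF1. For PCF11, TPA 2 was the lower of the TPA pair and TPA+H89 1 the higher of its pair. The log2 difference of PCF11 between TPA+H89 and TPA cells was −1.19 when TPA 2, control 1 and EGF 1, the libraries least correlated with the rest, were left out.

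With Benjamini-Hochberg adjustment across all 18575 genes, edgeR's test called no member: 0 of the 10 members passed an adjusted p of 0.05 in any of the 10 comparisons. In EGF against control 0.0269% of tested genes passed, in TPA against control 0.415%, in EGF+H89 against H89 0.0269% and in TPA+H89 against H89 0.0969%. The share was 0% in H89 against control, EGF+H89 against EGF, TPA+H89 against TPA, the mean H89 effect over these 3, and both interactions. At an unadjusted p under 0.05 the number of all tested genes was 303 for EGF, 2453 for TPA and 608 for H89 against control, 310 for EGF+H89 against EGF, 1300 for TPA+H89 against TPA and 1198 for the mean H89 effect. Of the 9 members other than PCF11, 0 had an unadjusted p under 0.05 in any of the 10 comparisons, and DESeq2 called 0 of them. DESeq2 called PCF11 lower in EGF+H89 against EGF (0.004% of genes were called lower), TPA+H89 against TPA (0.0731%) and the mean H89 effect (0.048%). These contrasts hold the values that chose the gene, so nothing is read from those calls. The mean H89 effect on PCF11 was −0.85 ± 0.13 (log2), and those on the other 9 members ran from −0.425 ± 0.24 for CPSF1 to 0.27 ± 0.14 for CPSF3.

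**Figure D4:**
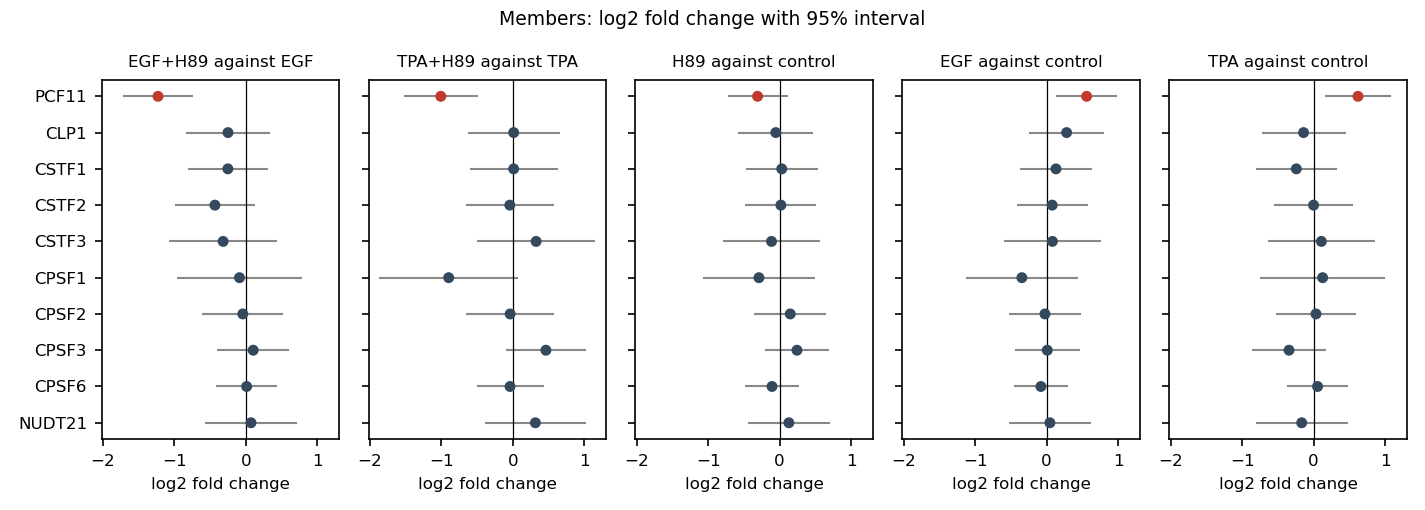
Log2 fold change (x axis) of each member (rows) with its 95% interval from the edgeR fit, in 5 comparisons with PCF11 in red. The PCF11 interval lies below 0 in both comparisons of H89 after a mitogen, above 0 for each mitogen over control, and spans 0 for H89 alone. PCF11 was chosen on the libraries with a mitogen, so its intervals there are a description and not a test. The intervals of the other 9 genes all span 0.

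As a group, the members lay close to all genes. The median log2 fold change of the 10 was −0.17 in EGF+H89 against EGF, beside −0.07 over all tested genes, and −0.01 beside −0.02 in TPA+H89 against TPA. Against control it was 0.06 beside 0.02 with EGF, 0.02 beside −0.02 with TPA and −0.02 beside −0.05 with H89. The median of the mean H89 effect was −0.06 beside −0.08.

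Over the 15 libraries, after the technical set was removed, the log2 CPM of PCF11 correlated at r = 0.58 with CSTF2, 0.04 with CLP1 and −0.43 with CPSF3. These values describe libraries that share treatments and sets. Among the other members, NUDT21 and CPSF3 stood at 0.78, CSTF1 and CPSF2 at 0.72, and NUDT21 and CPSF1 at −0.77. TPA 2 is the library in which NUDT21 and CPSF3 were both lowest and CPSF1 highest.

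Of 13457 genes with a mean of at least 1 CPM, the 8 whose pattern was most like that of PCF11 were LINC00312 (r = 0.88), C9orf131 (0.87), WDR33 (0.87), LOC100130705 (0.85), SLC25A34 (0.85), ZNF131 (0.84), LETM2 (0.83) and LINC00641 (0.83). Without removal of the technical set, 5 of these 8 were again among the top 8. The r without removal was 0.69 for LINC00312, 0.43 for LINC00641 and 0.36 for LETM2, so the likeness of these genes depends on that step. C9orf131, LOC100130705 and SLC25A34 had means of 1.14, 1.14 and 1.04 CPM, close to the limit of 1 CPM. WDR33 is the CPSF subunit that binds the AAUAAA signal. It had 48.7 and 45.8 CPM in TPA+H89 libraries and 53.4 and 50.4 CPM in TPA libraries. It had 46.4 and 45.4 CPM in EGF+H89 libraries, against 58.9, 55.2 and 52.1 CPM in EGF libraries. H89 libraries held 49.9, 47.4 and 49.0 CPM, against 50.4, 49.7 and 55.1 CPM in controls. Both groups with H89 and a mitogen lay below that mitogen alone, as did 10.1% of tested genes with EGF and 11.1% with TPA. WDR33 was picked for its likeness to PCF11 in these libraries, so a pattern shared with PCF11 is a description. EGF and control overlapped, as did TPA and control, and H89 and control. The log2 fold change of WDR33 was −0.27 ± 0.18 for EGF+H89 over EGF, −0.14 ± 0.20 for TPA+H89 over TPA and 0.004 ± 0.18 for TPA over control, none of which passed edgeR's quasi-likelihood test (adjusted p = 1 for the first). LINC00312 was lower in level, at 1.28 to 2.24 CPM with H89 and 1.303 to 7.42 CPM without it.

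The wider pathway was read from 6 lists with 89 genes, all tested. They were 12 other cleavage and polyadenylation factors, 24 polymerase II tail and termination factors and 17 Integrator subunits, which end small nuclear RNAs. The rest were 7 histone pre-mRNA factors, 10 proteins of the U1 snRNP, which restrains early cleavage, and 19 regulators of poly(A) site choice. By edgeR's quasi-likelihood test 0 of the 89 passed in any of the 10 comparisons. At an unadjusted p under 0.05 by that test there were 12 in TPA+H89 against TPA, beside 1300 of all 18575 tested genes. The number was 1 beside 310 in EGF+H89 against EGF and 0 beside 608 in H89 against control. In TPA against control it was 13 beside 2453. DESeq2, and edgeR with a term for the technical set, each called 1, HNRNPH2, lower in TPA against control, where it had 0 counts in both TPA libraries and 0.12 to 1.69 CPM in controls. In that direction DESeq2 called 1.03% and edgeR with the added term 0.307% of genes.

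PPP1R10, a regulatory subunit of the phosphatase PP1 in the complex that dephosphorylates the polymerase tail, had the lowest p of the lists for the mean H89 effect. It had 30.1 and 21.5 CPM in TPA+H89 libraries and 74.7 and 79.3 CPM in TPA libraries. It had 28.1 and 31.4 CPM in EGF+H89 libraries, against 14.9, 54.1 and 51.8 CPM in EGF libraries. It had 37.1, 47.2 and 35.6 CPM in H89 libraries, against 61.0, 41.6 and 49.6 CPM in controls. The TPA groups lay apart, as did those of 11.1% of tested genes in that direction, and EGF 1 was below every library with H89. The mean H89 effect on PPP1R10 was −0.79 ± 0.25 on the log2 scale (adjusted p = 0.751 by edgeR's quasi-likelihood test), next to −0.85 ± 0.13 for PCF11. Each gene was picked on values that enter this mean, so their likeness is a description. CTDP1, a tail phosphatase, stood at −0.51 ± 0.24, with 81.0 CPM in TPA 2 and 19.3 to 38.0 CPM in all other libraries.

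The list of U1 proteins had the highest list median of the mean H89 effect, 0.28 (log2). Most of its genes encode Sm-ring proteins, which are not particular to U1. SNRNP70, SNRPA and SNRPC, which lie outside the Sm ring, stood at −0.385 ± 0.26, 0.04 ± 0.18 and 0.65 ± 0.28. In that list the Sm-ring proteins SNRPG and SNRPE stood at 0.87 ± 0.30 and 0.73 ± 0.29, neither of which passed (adjusted p = 0.751 for both, edgeR's quasi-likelihood test). SNRPG had 59.8 and 31.6 CPM in TPA+H89 libraries, against 17.9 and 14.7 CPM in TPA libraries, and 18.8 and 30.6 CPM in EGF+H89 libraries, against 12.5, 10.6 and 26.8 CPM in EGF libraries. With H89 alone it had 16.1, 17.1 and 23.7 CPM, against 5.15, 14.9 and 18.5 CPM in controls. Its highest value was in TPA+H89 1 and its lowest in control 1. In the other lists, the splicing regulator HNRNPC stood at 0.59 ± 0.34, the elongation factor ELL2 at 0.39 ± 0.27, the poly(A)-binding protein PABPC1 at 0.42 ± 0.28, and the Integrator subunits INTS14 and INTS5 at 0.29 ± 0.13 and −0.26 ± 0.18. The histone factors LSM11 and SLBP stood at −0.29 ± 0.19 and −0.25 ± 0.20, and WDR33 at −0.16 ± 0.10.

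**Figure D5:**
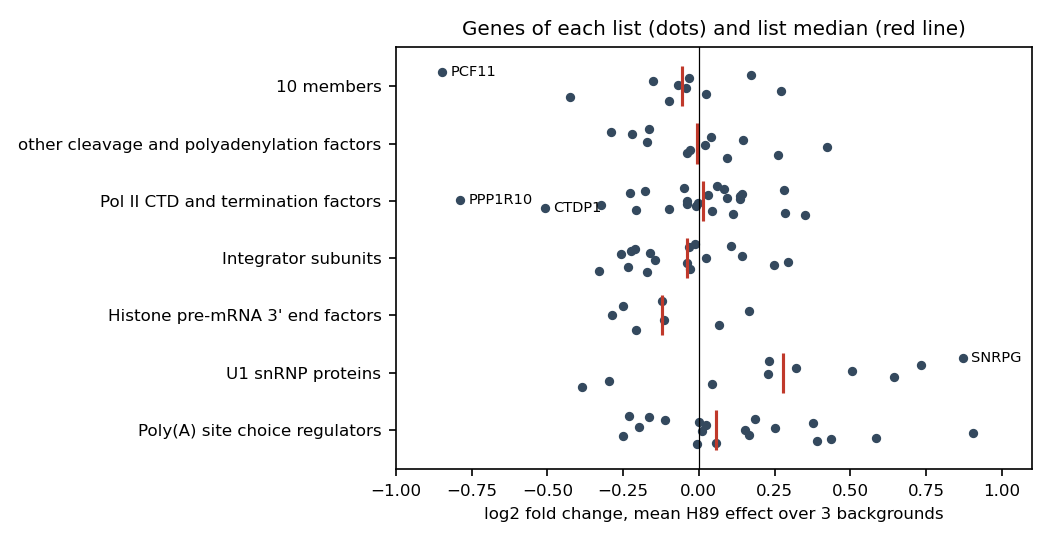
Mean H89 effect over the 3 comparisons with and without H89 (x axis, log2 fold change) for the 10 members and the genes of 6 lists (rows); dots are genes and red lines list medians. PCF11 (−0.85) and PPP1R10 (−0.79) lie lowest and SNRPG (0.87) and HNRNPH2, with 0 counts in both TPA libraries, lie highest.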

How the data were processed

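Total RNA of 16 samples was taken through ribosomal RNA depletion into libraries that keep strand, per the labels' protocols; the 3 platforms named there are not tied to samples. The authors deposited raw counts of reads per gene symbol. HOMER and the builds GRCh37 and hg19 come from the submitters' processing notes. The aligner, the annotation and the use of strand in counting: not given in the sources used here.

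In R 4.3.3, genes kept by filterByExpr of edgeR 4.0.16 (smallest count 10) were scaled by TMM, its trimmed mean method. The quasi-likelihood test was run on all 15 libraries in 1 model by group, adjusted by Benjamini-Hochberg over 18575 genes at 0.05. CPM are TMM-scaled, except the summed markers. SEs are the log2 fold change over the root of F. For correlations, log2 CPM had a prior count of 2, with technical sets removed by limma 3.58.1. Alternatives were DESeq2 1.42.0, size factors, without RNR1, RNR2 and RMRP, other filters (none, or 10 counts in 50% of libraries), compared groups only, a term for the technical set, and leaving out libraries. The scripts were tested on simulated data. Depth was the total count per library.

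The named genes were the 10 members, up to 2 genes per list of lowest p for the mean H89 effect, any gene called, and the 8 most correlated with PCF11; HNRNPH2, ADCK5 and PCF11-AS1 were added after their values were seen, and LINC00312 was chosen as the most correlated. Members and lists were chosen with earlier results of these data known. Promoters came from RefSeq (GRCh38.p14), since no genome of the counting build was used here.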

Additional observations from a re-analysis of the deposited data

Results flagged for a closer look

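The log2 difference of PCF11 with EGF was positive without H89 and negative with it. All 3 EGF libraries were above all 3 controls, as for 2.97% of tested genes, while both EGF+H89 libraries were below all 3 H89 libraries, as for 11.9%. The difference between EGF+H89 and H89 cells was −0.36 with a 95% interval of −0.83 to 0.11, which holds 0, so a reversed direction is not established. The change in the response was −0.92 ± 0.29 (log2, SE), in a comparison where 0% of tested genes passed edgeR's quasi-likelihood test. PCF11 was chosen for its level in these libraries, so the values are a description. No group had 4 or more libraries, so no library was examined as standing apart within its group.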

How the results depend on the processing

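The number of members called was recomputed under 23 alternatives in each of 10 comparisons. It was 0 in 226 of these 230 cases. DESeq2 called 1 member, PCF11, in EGF+H89 against EGF, TPA+H89 against TPA and the mean H89 effect; PCF11 was chosen on these values, so these calls support nothing. Leaving out 1 library at a time gave 0 to 1 member in TPA+H89 against TPA, the 1 being CPSF1 without TPA 1. The log2 difference of PCF11 stayed between −1.29 and −1.13 for EGF+H89 against EGF, −1.19 and −0.82 for TPA+H89 against TPA, −0.36 and −0.20 for H89 against control, 0.46 and 0.67 for EGF against control, and 0.39 and 0.80 for TPA against control. For TPA+H89 against H89 it was negative in 22 of the 23 alternatives, at −0.22 to 0.06. Counts over all genes moved more: EGF against control gave 5 genes, 41 with a term for the technical set, 62 with DESeq2 and 0 with the compared groups only, and TPA against control gave 77, 233, 488 and 0. The cause was not tested. No paired analysis was possible because the labels give samples only a running number and no number shared between groups; the term for the technical set uses sets read from the counts, not pairs of replicates. Groups of 2 or 3 libraries and the 7527026 counts of TPA+H89 1 limit precision.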
